A study of Mus musculus with 8 samples.

Results

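The interleukin-1 and interleukin-17 receptor and adaptor genes described here are Il1r1, Il1rl1, Il1rap, Il1rn, Il33, Il17ra, Il17rc, Il17rd, Traf3ip2 and Zc3h12a, 10 of the 43346 genes in the count table, taken by gene symbol. All 10 had at least 1 count, and 9 passed the filter on low counts and were tested. Il1rn passed it through its LLC-CM libraries alone, and Il33 did not pass.

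The counts come from MC3T3, a mouse pre-osteoblast line, cultured for 7 days with ascorbic acid (100 ug/mL) and beta-glycerophosphate (10 mM), additions that allow mineralization and that every library shares. The LLC-CM group (4 libraries) received 25% medium conditioned for 48 hours, without serum, by LLC1, a lung carcinoma line of the mouse. The NCM group (4 libraries) is taken as the vehicle control by elimination, since no label explains its abbreviation. All libraries are from 1 established line, and no label tells whether replicates came from separate cultures, so the p-values rest on the spread among these libraries, which may be technical.

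Interleukin-1 binds the receptor chain IL1R1, which then recruits the accessory chain IL1RAP, and the paired intracellular domains recruit MYD88 and IRAK kinases. IL-33 uses the same accessory chain with its own receptor ST2, the product of Il1rl1. The cytokines IL-17A and IL-17F act through IL17RA and IL17RC, whose intracellular domains recruit the adaptor ACT1, the product of Traf3ip2, and in osteoblasts and other stromal cells both cytokine families are known to induce inflammatory genes.

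Library totals ran from 27264212 to 35573953 counts, and 3 counts, the limit used for a count of 0, corresponded to 0.084 to 0.111 CPM (counts scaled to a common library total), which covers counting error only. The osteoblast markers Col1a1, Col1a2, Runx2, Sp7, Alpl, Ibsp and Bglap were all detected, and all 7 were lower in LLC-CM, with a summed level of 45300 to 55900 CPM in LLC-CM and 65400 to 87100 CPM in NCM. Of 8 macrophage markers, Lyz2 (log2 fold change 0.81) and Fcer1g (1.54) were higher in LLC-CM, 2 did not pass the threshold and 4 were too low to test, with a summed level of 18.7 to 32.3 CPM in LLC-CM and 11.7 to 17.4 CPM in NCM. The leukocyte marker Ptprc had 0 counts over LLC-CM and 4 over NCM, and Itgam had 0 counts in all libraries. Summed mast cell markers reached at most 0.0299 CPM in an LLC-CM library and 0.0341 CPM in an NCM library, with Cpa3, Tpsb2, Cma1 and Kit at 0. Summed T cell and innate lymphoid markers reached at most 0.389 CPM in LLC-CM and 0.341 CPM in NCM, with Cd3e, Cd3g, Cd4, Cd8a and Il7r at 0. Of 6 epithelial or carcinoma markers Muc1 was tested and was higher (log2 fold change 1.93), with Epcam, Krt8 and Krt18 listed at 0. Their summed level was 1.11 to 2.24 CPM in LLC-CM and 0.318 to 0.709 CPM in NCM. Muc1, with 45 counts over NCM, and Fcer1g, with 50, lay near the cutoff of the filter on low counts there, which left little room to call a fall. Of 6 adipocyte markers Fabp4 (1.37) and Cebpa (0.82) were higher and Plin4 (-0.40) was lower, with a summed level of 28.7 to 39.4 CPM in LLC-CM and 26.3 to 30.1 CPM in NCM. Endothelial markers summed to 1.52 to 1.71 CPM in LLC-CM and 2.18 to 2.73 CPM in NCM, and neutrophil markers to at most 0.592 CPM in LLC-CM and 0.459 CPM in NCM. The part of the marker genes that moved in the results below was not tested. In these bulk libraries a change in the number of cells that express a gene and a change in RNA per cell cannot be told apart.

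The promoters of the 4 receptor-side genes with the largest differences and of the 1 member that fell are shown because these members moved together or apart. RefSeq annotation (GRCm38.p6) gave promoter windows for 8 of the 10 members, 13 windows in all. Each line below gives the 250 bases before an annotated start, 5′ to 3′ on the gene's strand, with matches to any of 5 searched motifs in capitals.
Il1r1 upstream start, chr1:40224830-40225079 (+ strand): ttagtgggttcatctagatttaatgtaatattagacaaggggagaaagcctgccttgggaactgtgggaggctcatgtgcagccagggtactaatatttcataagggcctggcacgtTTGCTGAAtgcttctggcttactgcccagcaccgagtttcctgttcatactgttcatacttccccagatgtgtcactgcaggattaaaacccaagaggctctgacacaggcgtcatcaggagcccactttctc
Il1r1 downstream start, chr1:40266336-40266585 (+ strand): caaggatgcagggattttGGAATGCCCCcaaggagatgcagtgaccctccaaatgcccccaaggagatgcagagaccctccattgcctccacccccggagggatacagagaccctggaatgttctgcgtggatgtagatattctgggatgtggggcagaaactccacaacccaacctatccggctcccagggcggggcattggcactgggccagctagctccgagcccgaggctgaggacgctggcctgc
Il1rl1 upstream start, chr1:40429320-40429569 (+ strand): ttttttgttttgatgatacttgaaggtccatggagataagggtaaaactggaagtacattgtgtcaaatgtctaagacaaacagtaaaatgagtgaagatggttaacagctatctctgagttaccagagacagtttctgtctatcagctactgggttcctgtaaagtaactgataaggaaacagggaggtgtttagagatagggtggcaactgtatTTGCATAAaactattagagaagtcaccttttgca
Il1rl1 downstream start, chr1:40439379-40439628 (+ strand): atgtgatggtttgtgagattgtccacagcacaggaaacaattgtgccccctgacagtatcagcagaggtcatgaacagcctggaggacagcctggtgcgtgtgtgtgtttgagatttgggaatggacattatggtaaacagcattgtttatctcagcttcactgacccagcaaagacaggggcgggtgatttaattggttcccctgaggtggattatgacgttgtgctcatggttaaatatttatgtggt
Il1rap, chr16:26581455-26581704 (+ strand): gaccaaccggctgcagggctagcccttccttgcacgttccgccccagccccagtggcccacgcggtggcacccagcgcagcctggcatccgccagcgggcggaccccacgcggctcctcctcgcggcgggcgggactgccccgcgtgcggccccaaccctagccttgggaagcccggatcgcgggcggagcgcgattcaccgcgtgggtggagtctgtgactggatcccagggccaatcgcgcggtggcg
Il1rn upstream start, chr2:24336610-24336859 (+ strand): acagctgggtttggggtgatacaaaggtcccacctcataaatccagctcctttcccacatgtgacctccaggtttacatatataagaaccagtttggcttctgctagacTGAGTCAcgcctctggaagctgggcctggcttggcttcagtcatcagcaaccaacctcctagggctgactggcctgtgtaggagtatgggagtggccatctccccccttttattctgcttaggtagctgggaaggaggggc
Il17rd, chr14:27038751-27039000 (+ strand): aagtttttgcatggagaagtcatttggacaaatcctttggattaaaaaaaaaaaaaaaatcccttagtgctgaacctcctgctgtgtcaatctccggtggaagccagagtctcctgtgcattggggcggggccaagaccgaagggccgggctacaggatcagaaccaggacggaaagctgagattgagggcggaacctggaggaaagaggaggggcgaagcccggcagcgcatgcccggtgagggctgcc

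The motifs were searched on both strands: AP-1 (TGANTCA), C/EBP (TTGCNNAA), STAT (TTCNNNGAA), the interferon-stimulated response element (GAAANNGAA) and the NF-kB consensus. Of the 13 windows 5 held a match, none overlapping another, and 29.5% of all 32817 mouse RefSeq windows of the same length held at least 1. The upstream start of Il1rl1 had a C/EBP match, TTGCATAA, 34 to 27 bases before the start. The upstream start of Il1r1 had another, TTGCTGAA, 133 to 126 bases before it, and 9.57% of all windows held this motif. The downstream Il1r1 start had an NF-kB match on the opposite strand, read as GGAATGCCCC on the gene's strand, 232 to 223 bases before it, against 3.9% of all windows. Both downstream windows of Il1rn overlap each other, held no match and are not printed. The upstream Il1rn start had an AP-1 match, TGAGTCA, 141 to 135 bases before it, against 6.75% of all windows. The downstream start of Il33 held the remaining match, to C/EBP. No letters of the STAT or interferon motif (7.01% and 7.12% of all windows) stood in the members' windows. These matches describe letters only, and counts per gene do not show which start was used.

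Il1rn, which passed the filter through LLC-CM alone and so had to differ, is left out of the counts that follow. Of the other 8 members tested, 7 were higher in LLC-CM and 1, Il17rd, was lower, by edgeR's quasi-likelihood test at a Benjamini-Hochberg adjusted p under 0.05 over all 14991 genes tested. Over all those genes 36.9% were called, 18.8% higher and 18.1% lower in LLC-CM. In all 8 the 4 LLC-CM values lay beyond the 4 NCM values, which was so for 36.3% of all genes tested (18.1% with LLC-CM above and 18.2% with LLC-CM below). A call together with a fitted rise of at least 2-fold was made for 3 of the 8, Il1r1, Il1rl1 and Il1rap, and for 4.99% of all genes tested. No member of the interleukin-17 side differed by more than 1.75-fold.

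**Figure D1:**
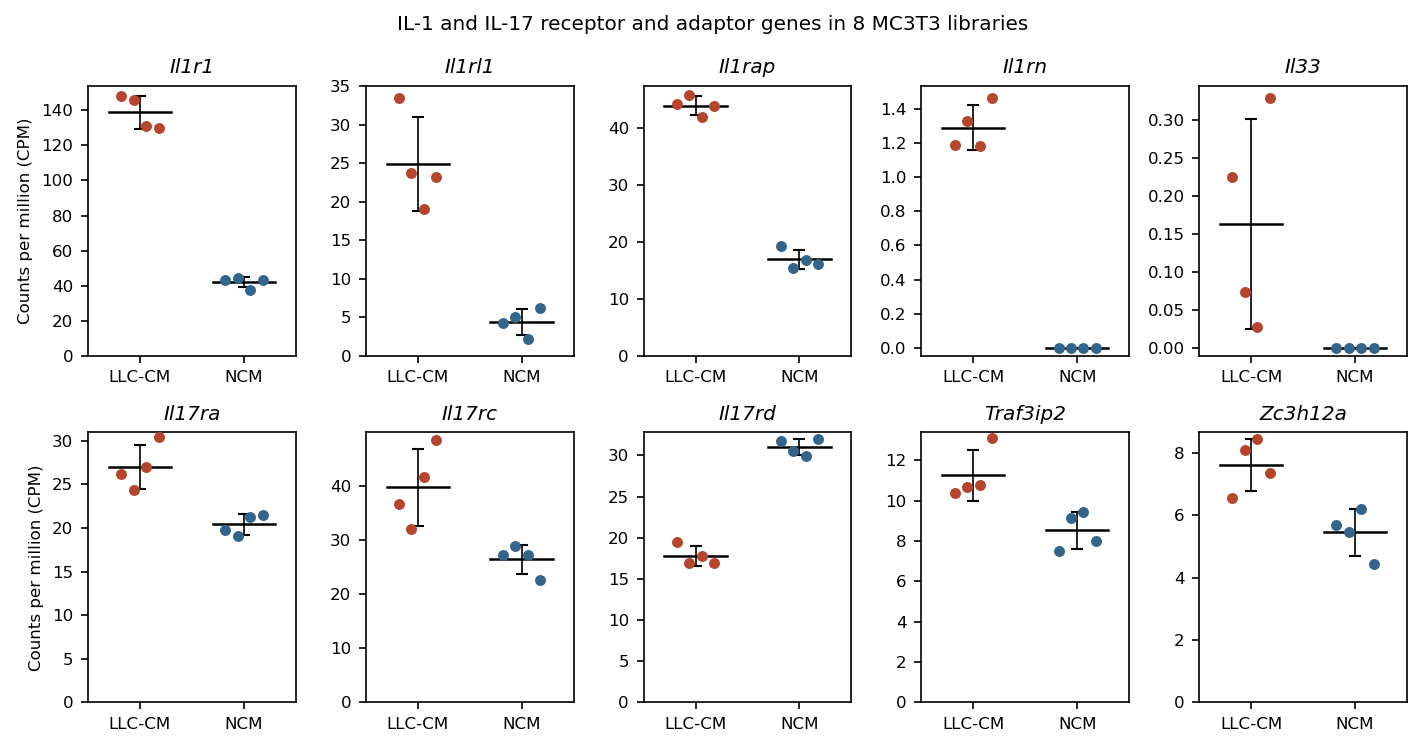
Level of each gene in CPM (linear axis per panel) in the 4 LLC-CM and 4 NCM libraries, as points, with the group mean and SD as lines. Il17rd is the one panel in which the LLC-CM points lie below the NCM points, and Il1rn and Il33 are at 0 in every NCM library.

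Il1r1 (ENSMUSG00000026072, chromosome 1, 40225080 to 40317257 in mm10) encodes the signalling receptor for IL-1 alpha and beta. Its level was 148, 146, 131 and 130 CPM in the LLC-CM libraries, against 43.2, 44.6, 37.8 and 43.1 CPM in the NCM libraries. The groups stood far apart, and the spread within each was small, with a coefficient of variation of 6.91% in LLC-CM and 7.16% in NCM. Il1r1 rose 3.3-fold, with a log2 fold change of 1.72 ± 0.07 (SE; edgeR, adjusted p = 5.7e-11), and ranked 82 of the 14991 genes by p-value.

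Il1rap (ENSMUSG00000022514, chromosome 16, 26581704 to 26730117) encodes the accessory chain shared by the IL-1, IL-33 and IL-36 receptors. It had 44.2, 45.9, 41.9 and 43.9 CPM in LLC-CM, against 19.4, 15.5, 16.8 and 16.2 CPM in NCM. The LLC-CM values were tighter than those of any other member in that group, at a coefficient of variation of 3.67%. Il1rap rose 2.58-fold, by a log2 fold change of 1.37 ± 0.08 (SE; edgeR, adjusted p = 3e-09). An antisense model, Gm20319, covers 4.86% of its exons and had 2 counts over LLC-CM and 0 over NCM.

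Il1rl1 (ENSMUSG00000026069, chromosome 1, 40429570 to 40465415) encodes ST2, which exists as a membrane receptor for IL-33 and as a soluble decoy, forms that a count per gene does not separate. It had 33.5, 23.7, 19.1 and 23.3 CPM in LLC-CM, against 4.26, 5.1, 2.22 and 6.25 CPM in NCM. LLC-CM replicate 1 was the highest and NCM replicate 3 the lowest, and no value of one group reached the other. Il1rl1 rose 5.55-fold, by 2.47 ± 0.26 (SE; edgeR, adjusted p = 1.8e-05), with a 95% interval of 1.9 to 3.05. It varied more between libraries than any other tested member, with a coefficient of variation of 24.5% in LLC-CM and 38% in NCM. In the odd-numbered replicates alone the mean was 26.3 CPM in LLC-CM and 3.24 CPM in NCM, an 8.1-fold ratio. In the even-numbered ones it was 23.5 CPM in LLC-CM and 5.67 CPM in NCM, a 4.15-fold ratio, and no label says that odd and even numbers were handled apart.

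Il1rn (ENSMUSG00000026981, chromosome 2, 24336853 to 24351494) encodes the IL-1 receptor antagonist, which occupies IL1R1 without signalling. It had 37, 36, 42 and 49 counts in the LLC-CM libraries, against 0 in each NCM library. That is 1.29 ± 0.135 CPM in LLC-CM (SD, n = 4), a low level. With 3 counts over the NCM group as the limit, Il1rn was at least 50.5-fold higher in LLC-CM. This bound depends on the depth of the NCM group, and ran from 36.9-fold (without NCM replicate 4) to 52.2-fold (without LLC-CM replicate 3) when a library was left out.

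Il33 (ENSMUSG00000024810, chromosome 19, 29925114 to 29960718), the ligand of ST2 and a nuclear protein released from damaged cells, was close to the detection limit. It had 7, 2, 1 and 11 counts in the LLC-CM libraries, against 0 in each NCM library. LLC-CM replicates 2 and 3 stayed below 3 counts. Over the groups, 21 counts in LLC-CM against the same limit of 3 in NCM put it at least 6.47-fold higher, and without LLC-CM replicate 4 at least 4.18-fold higher. These bounds leave out the spread among the LLC-CM libraries, a coefficient of variation of 84.4% in CPM. Il33 was not tested with the filter, and passed without it (edgeR, adjusted p = 0.0042). With 0 counts in every NCM library it could then be called higher but not lower, so this p-value is not independent support.

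**Figure D2:**
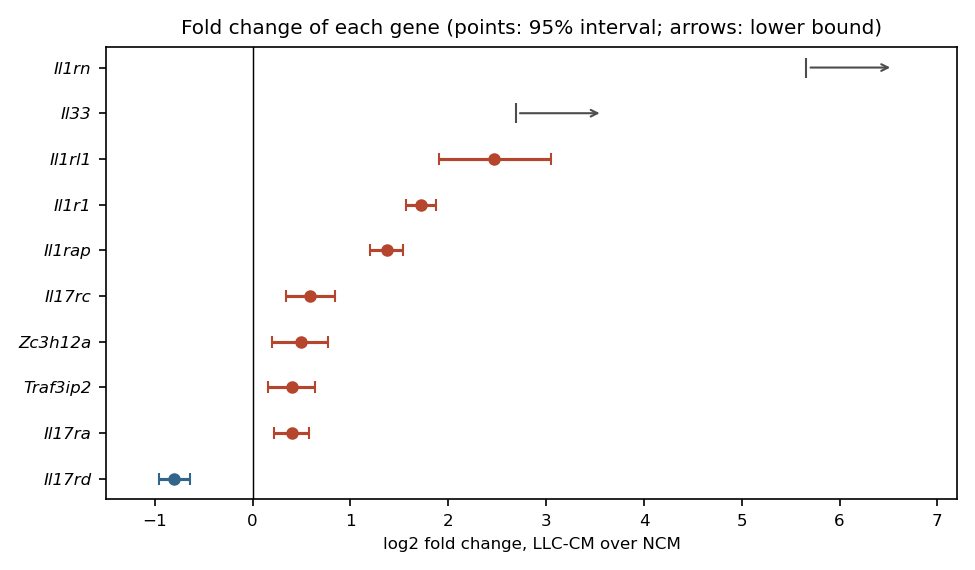
Log2 fold change of each gene, LLC-CM over NCM, with the 95% interval from the edgeR fit as bars; for Il1rn and Il33, which had no counts in NCM, an arrow starts at the lower bound. Il17rd alone lies left of 0, and Il1r1, Il1rl1 and Il1rap lie at 1.37 or above.

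On the interleukin-17 side, both chains of the IL-17A receptor rose. Il17ra (ENSMUSG00000002897, chromosome 6, 120463197 to 120483727), the chain common to several IL-17 family receptors, had 26.2, 24.4, 27 and 30.4 CPM in LLC-CM, against 19.8, 19.1, 21.3 and 21.5 CPM in NCM. The lowest LLC-CM value was above the highest NCM value by a small margin. It rose 1.32-fold, by 0.40 ± 0.08 (SE; edgeR, adjusted p = 0.0014).

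Il17rc (ENSMUSG00000030281, chromosome 6, 113471427 to 113483140), the partner chain for IL-17A and IL-17F, had 36.6, 32.1, 41.7 and 48.6 CPM in LLC-CM, against 27.2, 28.9, 27.2 and 22.6 CPM in NCM. LLC-CM replicate 4 was the highest and NCM replicate 4 the lowest. Il17rc rose 1.5-fold, by 0.59 ± 0.12 (SE; edgeR, adjusted p = 0.001).

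Il17rd (ENSMUSG00000040717, chromosome 14, 27039001 to 27107286) encodes an atypical family member, also called Sef, known as an inhibitor of fibroblast growth factor signalling. It had 19.5, 16.9, 17.8 and 16.9 CPM in LLC-CM, against 31.7, 30.5, 29.9 and 32 CPM in NCM. All LLC-CM values lay well below all NCM values. Il17rd was 1.75-fold lower, with a log2 fold change of -0.80 ± 0.08 (SE; edgeR, adjusted p = 6.7e-07).

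Traf3ip2 (ENSMUSG00000019842, chromosome 10, 39612934 to 39655307), the ACT1 adaptor gene, had 10.4, 10.7, 10.8 and 13.1 CPM in LLC-CM, against 7.51, 9.14, 9.46 and 7.98 CPM in NCM. LLC-CM replicate 4 stood above the other 3, which lay close to the upper NCM values. Traf3ip2 rose by 0.40 ± 0.11 (SE; edgeR, adjusted p = 0.012), and the call was lost without LLC-CM replicate 4 (log2 fold change 0.31, adjusted p = 0.054) or without NCM replicate 1 (0.33, adjusted p = 0.054). An antisense gene, E130307A14Rik, covers 7.95% of its exons and had 1604 counts over LLC-CM and 1299 over NCM, against 1434 and 999 for Traf3ip2 itself. The library kit does not mark strand, so reads from the shared exons cannot be told apart.

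Zc3h12a (ENSMUSG00000042677, chromosome 4, 125118423 to 125127840) encodes Regnase-1, an endoribonuclease that degrades inflammatory transcripts and is itself known to be induced by IL-1. It had 6.57, 8.1, 8.46 and 7.38 CPM in LLC-CM, against 5.7, 5.46, 6.22 and 4.45 CPM in NCM. The lowest LLC-CM library and the highest NCM library were close. Zc3h12a rose 1.4-fold, by 0.49 ± 0.13 (SE; edgeR, adjusted p = 0.0093).

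Divided by the deposited exon length, the order of levels differed between the groups. In LLC-CM Il1r1 was the highest, at 21.8 ± 1.51 CPM per kilobase (SD, n = 4), followed by Il17rc at 14.9 ± 2.65 and Il17ra at 6.8 ± 0.639. Il1rap (3.87), Il1rl1 (3.61), Traf3ip2 (3.05), Zc3h12a (2.65) and Il17rd (2.16) came next, with ranges that overlapped between each neighbouring pair. In NCM Il17rc was the highest, at 9.91 ± 1.03 CPM per kilobase, with Il1r1 at 6.63 ± 0.475, Il17ra at 5.14 ± 0.291 and Il17rd at 3.77 ± 0.117 (SD, n = 4), and no 2 of these 4 overlapped. Below them Traf3ip2 (2.31) overlapped Zc3h12a (1.89), which overlapped Il1rap (1.5), and Il1rl1 (0.647) stood apart. Il1rn and Il33 were last in both groups. The places of Il17ra and Il1rap depended on the length used, and the deposited length of Il17ra (3970 bases) is shorter than its exon union in GENCODE M21 (8662 bases). With the longest annotated transcript as the length, Il17ra had a mean of 3.48 CPM per kilobase in LLC-CM, below Il1rap (9.73), Il1rl1 (4.7) and Traf3ip2 (3.92). In NCM it then had 2.63 CPM per kilobase, below Il1rap (3.76), Il17rd (3.74) and Traf3ip2 (2.97). The Il17ra counts came with the 3970-base model, whose coordinates differ from those in GENCODE M21, so the longer length may understate Il17ra.

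Ratios of 2 members within a library do not depend on scaling between libraries. For each of 7 pairs the log2 ratio, with 0.5 added to each count, was compared between the groups. The accessory chain gene Il1rap had 29.9, 31.3, 32 and 33.6 counts per 100 counts of Il1r1 in LLC-CM, against 45, 34.8, 44.6 and 37.7 in NCM. All 4 LLC-CM ratios were below all 4 NCM ratios (log2 difference -0.35; exact two-sided permutation test, p = 0.0286). The difference was -0.54 in the odd-numbered and -0.16 in the even-numbered libraries alone. Against Il1rl1, Il1rap had 132, 193, 220 and 188 counts per 100 in LLC-CM, against 456, 304, 757 and 260 in NCM (log2 difference -1.17; exact permutation test, p = 0.0286). NCM replicate 3 set the upper end, and the log2 difference was -0.87 without it, -1.78 in the odd-numbered libraries and -0.56 in the even-numbered ones. Il1rn had 0.804 to 1.12 counts per 100 of Il1r1 in LLC-CM and 0 in NCM, so its log2 difference was set by the count added, at 4.54 with 0.5 and 2.59 with 2.

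Among the interleukin-17 chains, Il17rd had 74.7, 69.2, 65.9 and 55.4 counts per 100 of Il17ra in LLC-CM, against 160, 160, 140 and 149 in NCM. The groups were far apart (log2 difference -1.2; exact permutation test, p = 0.0286). The 2 partner chains kept ratios that overlapped, with 146 ± 12.9 counts of Il17rc per 100 of Il17ra in LLC-CM and 130 ± 19.5 in NCM (SD, n = 4; log2 difference 0.18, exact permutation test, p = 0.2). Zc3h12a per 100 of Traf3ip2 also overlapped, at 68.5 ± 10.4 in LLC-CM and 64.3 ± 8.78 in NCM (SD, n = 4; exact permutation test, p = 0.6). Il33 had at most 1.41 counts per 100 of Il1rl1 in LLC-CM and 0 in NCM (log2 difference with 0.5 added 0.43, exact permutation test, p = 0.6; -0.04 without LLC-CM replicate 4). With 4 libraries against 4 the smallest p is 0.0286, and the 4 ratios that reached it, one of them that of Il1rn with its NCM counts of 0, had an adjusted p of 0.05 over the 7 pairs, which does not pass a threshold of under 0.05.

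**Figure D3:**
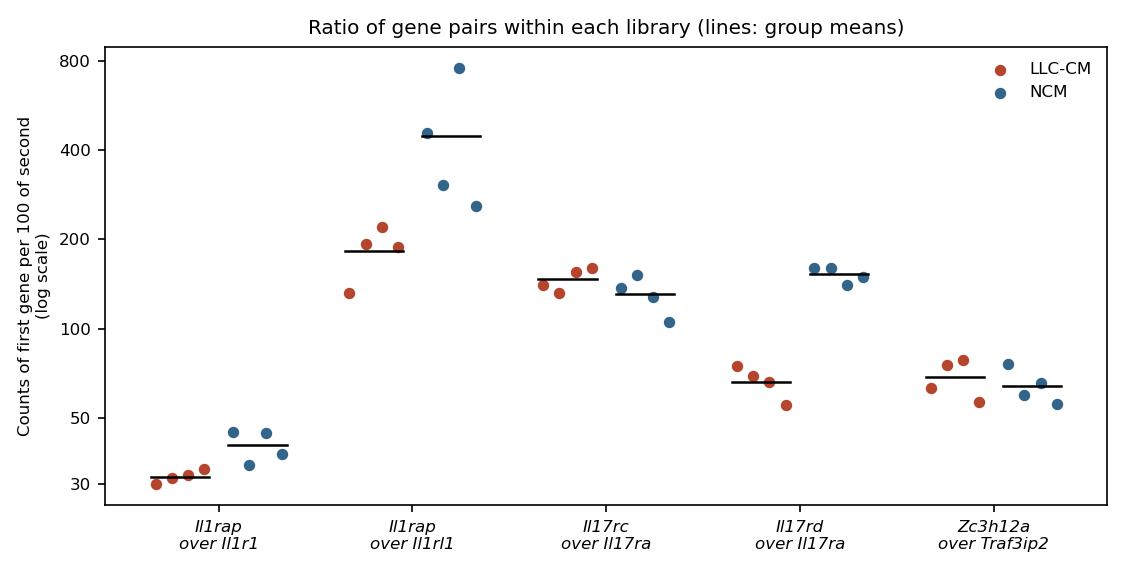
Counts of the first gene per 100 counts of the second in each library (log axis), for the 5 pairs with counts in every library, with group means as lines. The ratio of Il17rd to Il17ra lies at 55.4 to 74.7 in LLC-CM and at 140 to 160 in NCM, while Il17rc to Il17ra and Zc3h12a to Traf3ip2 overlap.

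Il1r1 and Il1rl1 lie in a run of 6 IL-1 receptor family genes on chromosome 1, between 40074079 and 40551705, and the other 4 were set beside them after their values were seen. In the order of the chromosome these are Il1r2, Il1r1, Il1rl2, Il1rl1, Il18r1 and Il18rap. Of the 6, 5 were called higher in LLC-CM and Il18r1 was too low to test, while 18.8% of all genes tested were called higher. Il1r2, a decoy receptor for IL-1, had 53, 63, 41 and 26 counts in LLC-CM, against 12, 2, 3 and 0 in NCM. Its fitted log2 fold change was 3.31 ± 0.59 (SE, edgeR). Il1r2 passed the filter on low counts through its LLC-CM libraries, so it could be called higher but not lower. Il1rl2, the IL-36 receptor gene, rose by 0.60 ± 0.11 (adjusted p = 0.00052, edgeR).

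Il18rap, the accessory chain gene of the IL-18 receptor, had 12.5, 9.47, 8.26 and 9.32 CPM in LLC-CM, against 1.26, 1.2, 0.247 and 1.8 CPM in NCM. LLC-CM replicate 1 was the highest and NCM replicate 3 the lowest, as for Il1rl1. It rose by 3.11 ± 0.33 (SE; edgeR, adjusted p = 9.8e-06). Il18r1, the ligand-binding chain gene that lies between Il1rl1 and Il18rap, had 1 count over LLC-CM and 0 over NCM, and its ligand gene Il18 had 14.1 ± 1.73 CPM in LLC-CM and 14.2 ± 1.12 CPM in NCM (SD, n = 4; log2 fold change -0.01, adjusted p = 0.96 in edgeR).

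**Figure D4:**
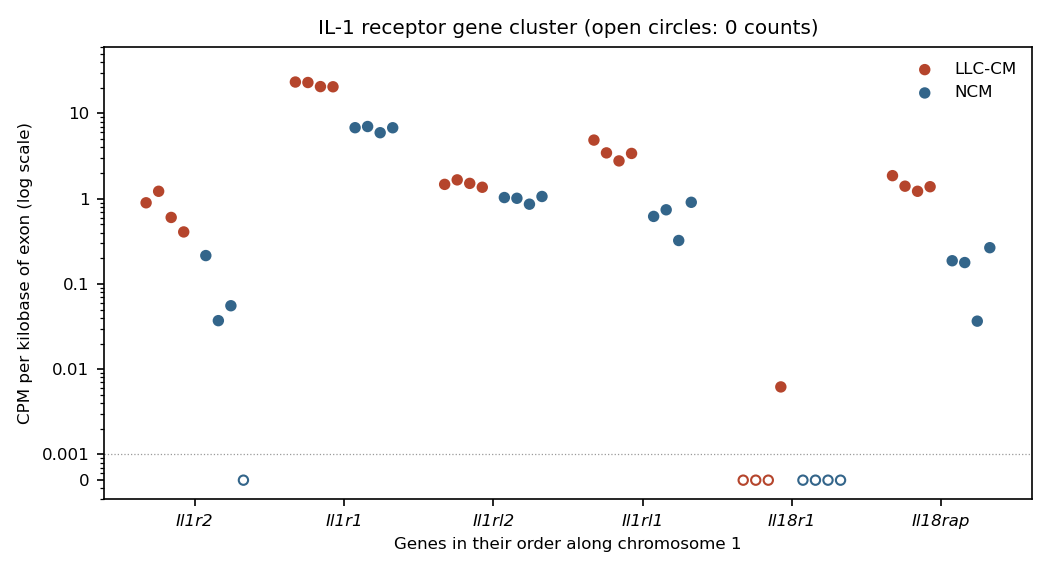
Level per kilobase of exon (log axis, open circles at 0 counts) of the 6 IL-1 receptor family genes in their order along chromosome 1, in the 4 LLC-CM and 4 NCM libraries. Il1r1 is the highest in both groups, and Il18r1 has a count in 1 of 8 libraries.

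Apart from Il18, the listed ligands of both families had few or no counts. Il1a, Il1b and 5 genes of the IL-36 and IL-38 group listed as Il1f5, Il1f6, Il1f8, Il1f9 and Il1f10 had 0 counts in all 8 libraries, and these 5 neighbour Il1rn on chromosome 2. Il17a, Il17b and Il25 also had 0 counts, Il17c had 1 count over LLC-CM and 0 over NCM, and Il17f had 2 over LLC-CM and 1 over NCM. Il17d had 15 counts over LLC-CM and 52 over NCM and was too low to test. A 0 in all 8 libraries need not mean no RNA in this table, since the mitochondrially encoded genes, which every cell uses, were also listed at 0 in all of them. Whether the conditioned medium itself carried such ligands was not measured.

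Of 12 listed IL-1 family ligand and processing genes 3 were tested, and 2 rose. For this list and the next 2, the share of all genes tested that rose was 18.8%. Casp1, the protease that matures IL-1 beta and IL-18, had 4.03 ± 0.995 CPM in LLC-CM and 0.606 ± 0.0861 CPM in NCM (SD, n = 4), a log2 fold change of 2.73 ± 0.24 (SE). Gsdmd, the pore protein that releases IL-1, rose by 0.56 ± 0.08. All 4 tested members of the 8 other IL-1 family receptors and decoys rose, with a median log2 fold change of 1.85 against 0.01 over all genes tested. Il1r2 is among the 4, and it passed the filter through LLC-CM, which fixed its direction and raises the median. They are Il18rap, Il1rl2, Il1r2 and Il18bp, the last a secreted inhibitor of IL-18 that rose by 0.59 ± 0.13. Of 9 IL-17 ligands and other receptor chains 1 was tested, Il17rb, a receptor chain for IL-25. It had 0.606 ± 0.13 CPM in LLC-CM and 0.226 ± 0.0815 CPM in NCM (SD, n = 4). With 27 counts over NCM, Il17rb passed the filter through LLC-CM and could be called higher but not lower.

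Of 16 adaptors, kinases and ligases of the IL-1 receptor 5 rose and 5 fell, with a median log2 fold change of -0.01. The 5 that fell were Tollip (-0.16), Traf6 (-0.19), Map3k7 (-0.19), Peli1 (-0.34) and Peli3 (-0.62). Over all genes tested 18.8% rose and 18.1% fell. Irak3, which encodes the inhibitory kinase homologue IRAK-M, had 8.81 ± 1.12 CPM in LLC-CM and 3.33 ± 0.311 CPM in NCM (SD, n = 4) and rose by 1.40 ± 0.13 (SE; edgeR, adjusted p = 7.1e-07). Myd88, the adaptor of IL-1 and Toll-like receptors, rose by 0.53 ± 0.08, and the ubiquitin pathway genes Peli2 and Ube2n rose by 0.45 ± 0.10 and 0.28 ± 0.06. Of 14 IL-17 receptor partners 5 rose and 2 fell, with a median of 0.00: Tnfaip3, which encodes the ubiquitin-editing inhibitor A20, rose by 0.54 ± 0.11, Traf2 by 0.41 ± 0.09 and Traf5 by 0.42 ± 0.11, while Traf4 fell by 0.44 ± 0.13.

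Of 20 listed genes known to be induced by IL-1 or IL-17 in stromal cells, 12 were tested, 10 rose and none fell, while 18.8% of all genes tested rose. The median log2 fold change of the 12 was 2.16, and the other 8 were too low to test. Saa3, Il6, Ccl2 and Ccl7, with 1, 12, 18 and 15 counts over NCM, passed the filter on low counts through LLC-CM. These genes could be called higher but not lower, and they raise the median. This list was written with earlier results of these libraries known, so its direction is not independent evidence. Mmp13, a collagenase, had 7470 ± 728 CPM in LLC-CM and 290 ± 21.2 CPM in NCM, and Lcn2, which encodes lipocalin 2, had 52.2 ± 9.16 CPM in LLC-CM and 0.922 ± 0.354 CPM in NCM (SD, n = 4). The serum amyloid gene Saa3 had 938 counts over the LLC-CM group and 1 over NCM, and Cebpd, a C/EBP transcription factor, rose by 1.38 ± 0.14. Some classical members of the list had almost no counts: Cxcl2, Cxcl5, Csf2, Csf3 and Mmp3 had 0 counts in all 8 libraries, and Cxcl1 had 3 counts over LLC-CM and 0 over NCM.

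Among 16 relatives and known substrates of Regnase-1, 12 were tested, 3 rose and 3 fell, with a median log2 fold change of -0.02. The shares over all genes tested were 18.8% and 18.1%. The substrates Tfrc, the transferrin receptor, and Il6 rose, by 0.81 ± 0.08 and 2.94 ± 0.52, and Ier3, an early response gene, fell by 0.72 ± 0.14. Il6, with 12 counts over NCM, passed the filter through LLC-CM and could be called higher but not lower. Rc3h1, which encodes the related RNA-binding protein Roquin-1, fell by 0.29 ± 0.06. The other Regnase genes tested, Zc3h12b and Zc3h12c, did not pass the threshold (log2 fold change -0.12 ± 0.12 and -0.11 ± 0.10).

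**Figure D5:**
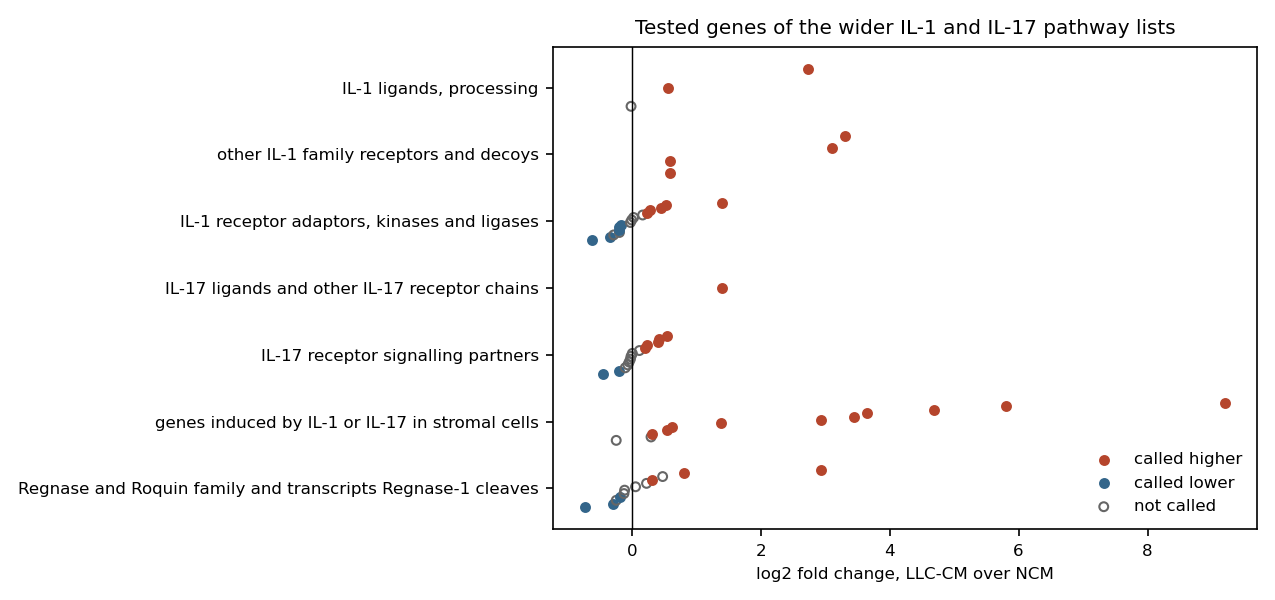
Log2 fold change, LLC-CM over NCM, of each tested gene in 7 lists of the wider IL-1 and IL-17 pathways, coloured by call. Genes known to be induced by IL-1 or IL-17, a list written with earlier results known, reach the highest values. Saa3, the highest, had 1 count over NCM and could be called higher but not lower. The adaptor, partner and Regnase lists spread to both sides of 0.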

How the data were processed

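RNA of 8 MC3T3 samples was sequenced after poly(A) selection, with 200 ng of RNA as input and 12 cycles of PCR, per the labels' protocols. The authors deposited raw read counts per gene, with exon lengths. The tools were STAR, featureCounts and CASAVA, with the mm10 build, per the submitters' processing notes. Their versions are not given in the sources used here. Columns were matched to samples by title. The labels' kit does not mark strand.

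The main test was edgeR 4.0.16 (limma 3.58.1, R 4.3.3): quasi-likelihood F test, TMM factors, filterByExpr (14991 of 43346 genes), adjustment by Benjamini-Hochberg over all of them at 0.05, LLC-CM minus NCM, with SE as the absolute log2 fold change over the square root of F. CPM uses TMM-scaled totals of the genes tested. The fit was run on simulated counts in which far fewer genes changed than were called here. That run checks the code and does not measure error rates in these data. Library pairs within a group differed beyond sampling noise (chi-square per degree of freedom 7.07 or more), so none was a repeat deposit. Deposited lengths equalled the exon union of GENCODE M21 for 8 of 10 members, and not for Il17ra and Il17rd.

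The members and lists were chosen with earlier results of these data known. Named genes are all members and, per list, up to 4 called genes with the smallest adjusted p; Il18 and the ligands are given whatever their values. Genes given at 0 counts, Cxcl1, Ccl2, Ccl7, Zc3h12b and Zc3h12c, and the neighbours of Il1r1 were chosen after their values were seen. So were the IL-1 receptor adaptors, kinases and ligases that fell. Alternatives were other scaling factors, other filters, DESeq2 1.42.0, limma-voom, a replicate block, odd or even replicate number, leaving out each library, and stricter thresholds.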

Additional observations from a re-analysis of the deposited data

Results flagged for a closer look

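One value stood far from the rest of its group by Dixon's test, among 30 groups of 4 examined for the members and their ratios. Traf3ip2 in LLC-CM replicate 4 was at 13.1 CPM, against 10.4 to 10.8 CPM in the other 3 LLC-CM libraries, a gap of 0.868 of the group's range, which is past the 95% limit for 4 values. Chance alone gives about 1 such value in 20 groups. The call of Traf3ip2 depended on this library, since its adjusted p was 0.054 without it (edgeR). The antisense gene that shares its exons had 1604 counts over LLC-CM and 1299 over NCM, and the part of these reads in the Traf3ip2 values was not tested.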

How the results depend on the processing

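Of the 171 fold changes of members under an alternative, 163 kept their direction and side of the threshold, 8 kept their direction but lost the call, and 0 reversed. Those of Il1rn are among them, and with 0 counts in every NCM library they could not reverse. The values at an adjusted p under 0.01 and against a 2-fold change reuse the estimates of the main fit, so they could not reverse either. Against a 2-fold change, 785 of the 14991 genes tested were called, 413 higher and 372 lower. With them were Il1r1, Il1rl1 and Il1rap, all higher in LLC-CM, and 0 members were lower. Il1rn also passed, but it entered the test through LLC-CM alone and so had to differ. Leaving out a library kept 8 or 9 members called (Il1rn counted, here and with the block), 7 or 8 of them higher and 1 lower, and 4912 to 5501 genes called (2429 to 2735 higher, 2445 to 2819 lower). Traf3ip2 also lost its call at an adjusted p under 0.01. The ratio of Il33 to Il1rl1, which had no counts of Il33 in NCM, reversed to -1.02 with 2 counts added, was -0.49 in the odd-numbered libraries, and ran from -0.04 (without LLC-CM replicate 4) to 0.87 when a library was left out. Without 1 library an exact permutation test of a pair ratio cannot go below p = 0.057, so the 32 values there with an unadjusted p no longer under 0.05 say nothing about stability. The fitted log2 fold change of Il1rn ran from 6.25 to 8.34 and depends on the count assumed for NCM. Same-numbered libraries deviated together at correlations of -0.04 to 0.2, so the numbers were not taken as pairs; with the replicate number as a block 9 members were called and 5473 genes. Depth limits Il33 and Il1rn, whose NCM levels are known only to be below 3 counts.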
